A study of Mus musculus with 2 samples.

Results

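The nuclear genes of the oxidative phosphorylation machinery were compared between hematopoietic stem cells labelled Sirt6 knockout and wild type. Members were chosen by gene symbol alone: every gene whose symbol in the platform annotation starts with Ndufa, Ndufb, Ndufc, Ndufs or Ndufv, is Sdha to Sdhd, or starts with Uqcr, Cyc1, Cox4 to Cox8 or Atp5. Only probe sets that name 1 gene were used. The rule found 91 genes of 18193 named genes, covered by 180 of 45037 probe sets. They were 36 genes of complex I, 4 of complex II, 9 of complex III, 17 of complex IV, 17 of complex V and 8 Ndufaf genes. The Ndufaf genes share the Ndufa prefix but encode assembly factors of complex I, which help build the complex and are not part of it, so the name subunits holds for the other 83 genes and the Ndufaf genes are given apart.

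Each group had 1 array. The Sirt6 knockout group was RNA of hematopoietic stem cells (HSC, the bone marrow cells from which all blood lineages arise) from mice aged 3 months with Sirt6, a nuclear NAD-dependent deacylase, knocked out. The wild-type group was HSC of wild-type mice of the same age. The labels do not say how Sirt6 was disrupted, how the cells were sorted or whether animals were pooled. With 1 array in a group no difference has a replicate check, and no SD, test or p-value between genotypes is given.

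Oxidative phosphorylation takes place in the inner mitochondrial membrane. Complex I oxidises NADH and complex II oxidises succinate, both passing electrons to coenzyme Q; complex III passes them on to cytochrome c, and complex IV hands them to oxygen. Complexes I, III and IV pump protons, and complex V, the ATP synthase, lets the protons flow back and makes ATP. Most subunits are encoded in the nucleus, and a few core subunits in mitochondrial DNA. Long-term HSC are known for leaning on glycolysis while quiescent, and for raising mitochondrial respiration when they differentiate.

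Promoter windows from RefSeq (GRCm38.p6, 250 bases before to 50 after each start) existed for 74 of the 91 members, in 79 windows. Respiratory chain genes are known targets of the transcription factors NRF-1, YY1 and ETS proteins such as GABP, so 4 motifs were searched on both strands: GCGCANGCG for NRF-1, AAGATGGCG for YY1, CCGGAAG for the ETS core and TATAAA for the TATA box. The NRF-1 letters were in 21 of 79 windows of members (26.6%), against 12.9% of 11950 windows of all measured genes and 6.25% of all 32851 windows. The YY1 letters were in 7 windows of members (8.86%), against 3.00% of windows of measured genes and 1.40% of all windows. ETS letters were in 19 windows of members (24.1%), against 17.2% of windows of measured genes and 8.86% of all windows. TATA letters were in 9 windows of members (11.4%), against 7.25% of windows of measured genes and 13.6% of all windows. None of the 74 had both the NRF-1 and the YY1 letters. With the YY1 letters in only 7 windows few such pairs could occur, and the share among all windows was not computed. These matches are descriptions of the windows, and genes with several starts have several windows.

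The windows shown are those of members described by name below, with their motif letters in capitals, 5′ to 3′ on the gene's strand. Uqcrc1 (chr9:108936398-108936697, plus strand) is a complex III subunit with the NRF-1 letters, Ndufs7 (chr10:80249199-80249498, plus strand) the lowest complex I subunit, with the YY1 and TATA letters, and Ndufaf8 (chr11:120098684-120098983, plus strand) an assembly factor with the ETS and YY1 letters. Cox6b2 (chr7:4753045-4753344, minus strand) is the one member at least 1.5-fold different and held none of the 4 motifs. Its widely expressed counterpart Cox6b1 (chr7:30626065-30626364, minus strand) held the ETS letters, and Cox8b (chr7:140900397-140900696, minus strand), an unmeasured heart and muscle isoform, held the TATA letters.
Uqcrc1: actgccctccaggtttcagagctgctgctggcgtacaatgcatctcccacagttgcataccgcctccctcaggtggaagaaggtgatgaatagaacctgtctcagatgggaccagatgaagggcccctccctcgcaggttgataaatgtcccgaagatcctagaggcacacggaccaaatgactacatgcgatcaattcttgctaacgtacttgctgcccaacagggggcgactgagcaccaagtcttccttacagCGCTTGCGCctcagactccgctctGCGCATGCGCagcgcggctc
Ndufs7: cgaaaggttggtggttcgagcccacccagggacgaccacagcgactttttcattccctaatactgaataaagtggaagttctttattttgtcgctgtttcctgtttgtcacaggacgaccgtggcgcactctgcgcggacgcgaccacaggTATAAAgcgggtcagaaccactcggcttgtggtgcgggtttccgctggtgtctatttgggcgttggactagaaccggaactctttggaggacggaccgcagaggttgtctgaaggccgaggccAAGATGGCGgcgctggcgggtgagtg
Ndufaf8: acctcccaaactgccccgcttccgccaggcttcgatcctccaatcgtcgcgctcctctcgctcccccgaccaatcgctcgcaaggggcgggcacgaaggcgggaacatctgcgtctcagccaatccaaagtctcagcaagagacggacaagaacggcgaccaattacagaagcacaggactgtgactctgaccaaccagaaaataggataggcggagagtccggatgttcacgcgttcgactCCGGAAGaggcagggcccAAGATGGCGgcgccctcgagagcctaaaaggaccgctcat
Cox6b2: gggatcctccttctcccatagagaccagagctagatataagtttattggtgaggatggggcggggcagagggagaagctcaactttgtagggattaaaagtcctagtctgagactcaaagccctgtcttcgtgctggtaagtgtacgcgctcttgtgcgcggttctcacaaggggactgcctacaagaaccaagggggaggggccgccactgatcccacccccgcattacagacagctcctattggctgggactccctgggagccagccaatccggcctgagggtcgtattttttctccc
Cox6b1: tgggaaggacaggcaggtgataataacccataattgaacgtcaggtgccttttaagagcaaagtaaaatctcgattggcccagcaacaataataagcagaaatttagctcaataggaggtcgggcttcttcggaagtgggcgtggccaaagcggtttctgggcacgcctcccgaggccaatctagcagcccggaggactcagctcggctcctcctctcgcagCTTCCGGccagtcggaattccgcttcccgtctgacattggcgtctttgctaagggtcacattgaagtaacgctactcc
Cox8b: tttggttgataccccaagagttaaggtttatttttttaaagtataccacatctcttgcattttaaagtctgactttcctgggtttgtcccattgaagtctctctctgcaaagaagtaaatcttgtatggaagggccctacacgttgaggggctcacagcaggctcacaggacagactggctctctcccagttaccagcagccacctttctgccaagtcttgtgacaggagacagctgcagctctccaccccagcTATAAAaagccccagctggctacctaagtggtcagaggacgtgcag

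A signal is the deposited MAS5 intensity of a probe set, on a linear scale. Each gene was represented by its brightest probe set (mean log2 signal of both arrays), and a log2 ratio is the log2 signal of the knockout array minus that of the wild-type array. A floor was set at a signal of 60.5, the median of the mean signals of all probe sets. A gene counted as measured when above it on at least 1 array. Of the 91 members 85 were measured, all 85 of them on both arrays, and 6 were under the floor on both, as were 6646 of all 18193 named genes. Signals of different probe sets are not compared with each other, since each binds its target with its own efficiency.

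Transcripts of the respiratory chain read nearly the same on both arrays. In RNA of many cells a different share of cells and a different RNA level per cell cannot be told apart. Of the 85 measured members, 1 (Cox6b2, higher) differed by at least 1.5-fold, against 4.35% of all 11547 measured genes (1.71% higher). At least 1.2-fold was reached by 4 members, against 22.0% of all measured genes. Of the 4, 2 were higher, as were 10.4% of all genes, and 2 lower, as were 11.5%. The median log2 ratio of the 77 measured subunits was -5.7e-05, with 38 above 0 and 39 below, beside 0.0023 for all measured genes. The central 50% of subunit ratios ran from -0.05 to 0.04, against -0.13 to 0.13 for all genes.

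**Figure D1:**
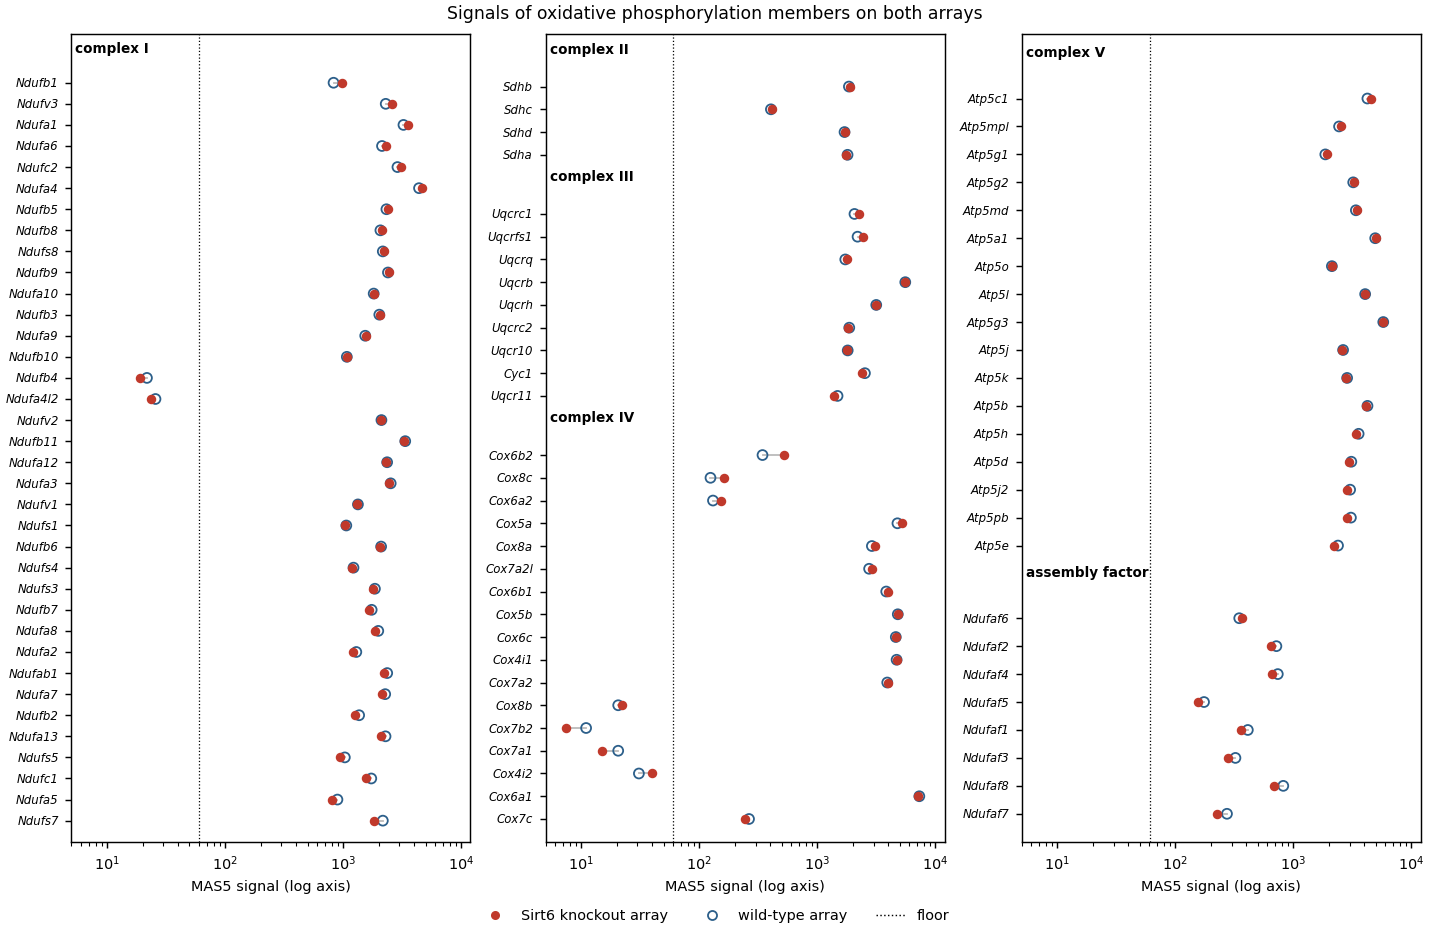
MAS5 signal (log axis) of each of the 91 members on the Sirt6 knockout array (filled red) and the wild-type array (open blue), by complex, with the floor of 60.5 as a dotted line. The 2 symbols overlap for most subunits; Cox6b2 (527 in knockout against 344 in wild type) is the widest pair above the floor.

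Most subunits were bright. Of the 77 measured subunits, 69 had a mean log2 signal of at least 10, and all 69 lay within 1.2-fold. Among all 1987 genes that bright, 6.89% were at least 1.2-fold different. The SD of the log2 ratio was 0.08 over the 69 bright subunits, against 0.17 over the 1987 genes. Both sets share only this lower bound on signal and were not matched in brightness. The part of brightness in the narrower spread of the subunits was not tested.

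**Figure D2:**
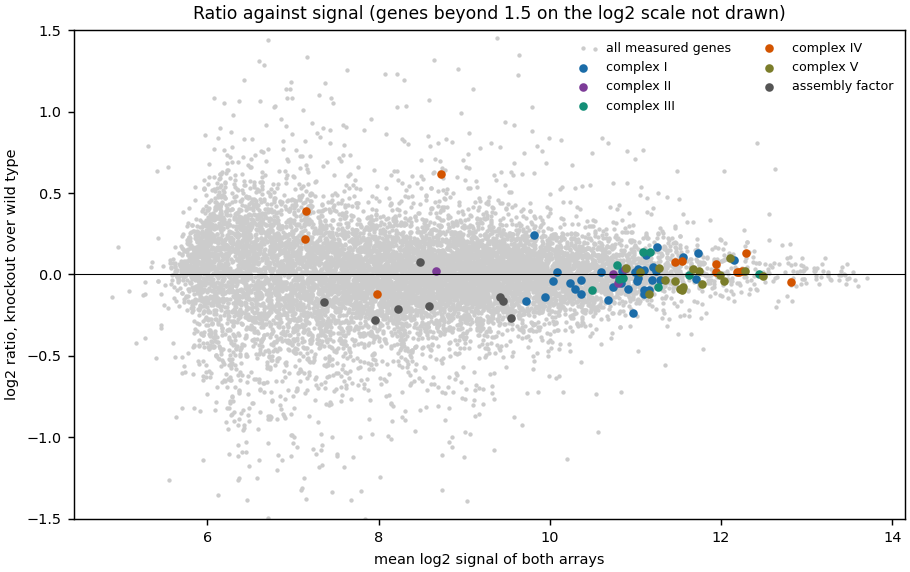
Log2 ratio (knockout over wild type) against the mean log2 signal of both arrays for all 11547 measured genes (grey) and for the measured members, coloured by complex. Subunits gather on the right near 0, while Cox6b2, Cox8c and the assembly factors lie at lower signals.

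Several probe sets of one gene give one measure of technical error. They are read on the same arrays from the same RNA, so error between arrays or RNA samples is not part of it. Of the members, 47 had 2 or more probe sets that exceeded the floor on both arrays, 120 probe sets in all. Between probe sets of one gene the pooled SD of the log2 ratio was 0.08, against 0.22 over 4632 genes of the whole array. In 33 of the 47 members (70.2%) all probe sets pointed the same way, against 52.4% of the 4632 genes. The widest ranges were those of Uqcrq, from -0.11 to 0.32 over 3 probe sets, and Ndufb2, from -0.39 to -0.00069 over 3. For 49 of the 77 measured subunits the ratio was no larger than that SD.

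**Figure D3:**
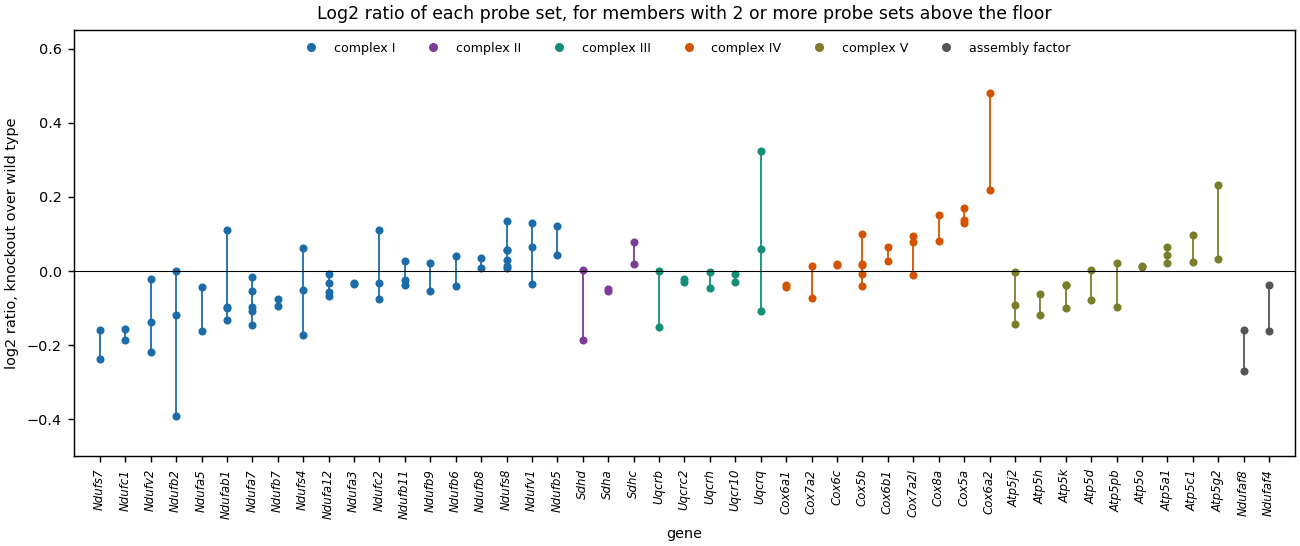
Log2 ratio (knockout over wild type) of every probe set that exceeded the floor on both arrays, for the 47 members with at least 2 of them, coloured by complex, with a line from the lowest to the highest. Ratios of one gene mostly lie close together, and no gene spans 0.5.

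In complex I, 14 of 34 measured subunits had a ratio above 0 and 20 below, with a median of -0.03 and a range from -0.24 to 0.24, and none reached 1.2-fold. Of all measured genes 49.5% lay below 0. The 6 core subunits found by the rule, which carry the flavin and iron-sulphur clusters or line the coenzyme Q site, had a median of -0.04, with 5 of 6 below 0. Ndufs7, which holds the last iron-sulphur cluster before coenzyme Q, had the lowest ratio of the complex: it read 1841 on the knockout array and 2172 on the wild-type array (log2 -0.24), and its second probe set gave -0.16. Ndufs8, another cluster-bearing core subunit, read 2217 on the knockout array against 2171 on the wild-type array (log2 0.03), and its 6 probe sets ran from 0.0083 to 0.14. Ndufv1, the flavin-bearing subunit that binds NADH, read 1305 in knockout against 1336 in wild type (log2 -0.03), while its other probe sets gave 0.13 and 0.06. Ndufv2, its partner, read 2082 in knockout against 2114 in wild type (log2 -0.02), and its further probe sets gave -0.22 and -0.14. The remaining core subunits Ndufs1 (log2 -0.04) and Ndufs3 (log2 -0.05) were also close to 0.

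Supernumerary subunits of complex I surround that core. Ndufb1 had the highest ratio, at 983 on the knockout array and 831 on the wild-type array (log2 0.24), on its 1 probe set. Ndufv3 read 2581 in knockout against 2298 in wild type (log2 0.17). Ndufa1, a small membrane subunit, read 3557 in knockout against 3248 in wild type (log2 0.13). At the other end Ndufa5 read 801 on the knockout array and 896 on the wild-type array (log2 -0.16), while its second probe set gave -0.04. Ndufc1 read 1557 in knockout against 1734 in wild type (log2 -0.16), with -0.18 on its second probe set. The other measured supernumerary subunits lay between -0.14 (Ndufs5) and 0.12 (Ndufa6). Ndufab1, the mitochondrial acyl carrier protein, had a log2 ratio of -0.10, with 4 probe sets from -0.13 to 0.11. Ndufs4, a subunit whose loss causes Leigh syndrome in humans, read 1182 in knockout against 1226 in wild type (log2 -0.05), with 0.06 and -0.17 on its other probe sets. Ndufa4, named for complex I but since assigned to complex IV, read 4677 on the knockout array and 4401 on the wild-type array (log2 0.09). Its paralog Ndufa4l2, known as a hypoxia-induced gene, was under the floor at 23.7 in knockout against 25.8 in wild type.

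The probe set of Ndufb4 that names it alone was under the floor (19.2 in knockout against 21.8 in wild type). A pair of other probe sets that name Ndufb4 with its near-identical copies read 1460 in knockout against 1514 in wild type and 1244 in knockout against 1250 in wild type. The same holds for Ndufs6 and Ndufa11, which were named only together with a copy. The Ndufs6 probe set read 1496 in knockout against 1474 in wild type, and the brighter Ndufa11 probe set 1066 in knockout against 986 in wild type. In all, 10 probe sets named a member of the rule together with another gene and were left out of every count here.

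Complex II, which also works in the tricarboxylic acid cycle, ran from -0.05 to 0.03 over its 4 subunits, the fewest of any complex. The flavoprotein Sdha read 1738 on the knockout array and 1805 on the wild-type array (log2 -0.05). The iron-sulphur subunit Sdhb read 1898 in knockout against 1854 in wild type (log2 0.03). The membrane anchors Sdhc and Sdhd read 411 in knockout against 405 in wild type (log2 0.02) and 1705 in knockout against 1702 in wild type (log2 0.0031). None of the 4 differed by more than the 0.08 between probe sets of one gene, and a second probe set of Sdhd gave -0.19.

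In complex III, 3 of 9 subunits lay above 0 and 6 below, beside 50.4% of all measured genes above 0. The median was -0.0016, and after centring each array on its median the split was 5 and 4. The core protein Uqcrc1 read 2277 on the knockout array and 2066 on the wild-type array (log2 0.14). Uqcrfs1, the Rieske iron-sulphur protein, read 2417 in knockout against 2195 in wild type (log2 0.14). Uqcrq read 1799 in knockout against 1727 in wild type (log2 0.06). The lowest were Uqcr11, at 1388 on the knockout array and 1485 on the wild-type array (log2 -0.10), and Cyc1, the cytochrome c1 that feeds cytochrome c, at 2401 in knockout against 2533 in wild type (log2 -0.08). Uqcr10 followed, at 1775 in knockout against 1810 in wild type (log2 -0.03). Of these subunits that carry electrons, Uqcrfs1 lay above 0 and Cyc1 below. The Cyc1 ratio (-0.077) was smaller than the SD between probe sets of one gene (0.082). The remaining ones, Uqcrb, Uqcrh and Uqcrc2, lay between -0.03 and 0.

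Complex IV leaned slightly above 0. Of 13 measured subunits 11 lay above and 2 below, with a median of 0.06, and after quantile normalization the split was 9 and 4 with a median still above 0. Of all measured genes 50.4% lay above 0. The 10 widely expressed subunits had a median of 0.02 and ran from -0.12 to 0.13. Cox5a, a subunit on the matrix side, read 5226 on the knockout array and 4778 on the wild-type array (log2 0.13), with its 3 probe sets from 0.13 to 0.17. Cox4i1, the largest nuclear subunit, read 4748 in knockout against 4699 in wild type (log2 0.01). Cox7a2l, which joins complexes III and IV into supercomplexes, read 2904 in knockout against 2749 in wild type (log2 0.08). The lower ones were Cox7c, at 243 on the knockout array and 264 on the wild-type array (log2 -0.12), and Cox6a1, at 7104 in knockout against 7321 in wild type (log2 -0.04). Cox7a2 was next, at 3950 in knockout against 3916 in wild type (log2 0.01), with -0.07 on its second probe set. Cox5b, Cox6b1, Cox6c and Cox8a lay between 0.02 and 0.08.

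Cox6b2 and Cox8c, the 2 members with the highest ratios, are tissue isoforms of complex IV, which replace the common subunits in certain organs. Cox6b2, known from testis, read 527 on the knockout array and 344 on the wild-type array, 1.53-fold higher (log2 0.62) on its 1 probe set. Cox6b1, the common form, read 4012 in knockout against 3838 in wild type (log2 0.06). Cox8c, also known from testis, read 163 on the knockout array and 125 on the wild-type array (log2 0.39). Its other probe set was under the floor. Cox6a2, the heart and skeletal muscle form, read 152 in knockout against 131 in wild type (log2 0.22), and its second probe set 92.8 in knockout against 66.5 in wild type (log2 0.48). All 3 measured tissue isoforms were thus higher on the knockout array, while 4 others were under the floor on both. Those were the hypoxia and lung form Cox4i2 (40.2 in knockout against 30.8 in wild type), the muscle forms Cox7a1 (14.95 in knockout against 20.6 in wild type) and Cox8b (22.3 in knockout against 20.6 in wild type), and the testis form Cox7b2 (7.51 in knockout against 11.01 in wild type). Of 7 heart and muscle markers, 6 were also under the floor on both arrays, and Mb, myoglobin, read 142 in knockout against 104 in wild type (log2 0.45), with its second probe set under the floor. Of all genes from 7 to 10 in mean log2 signal, the range of the 3 measured isoforms, 47.5% lay above 0. At least 1.5-fold different were 4.08% of them, a size that only Cox6b2 of the 3 reached. With 3 genes, a shared direction is too small a count to describe tissue isoforms as a class.

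**Figure D4:**
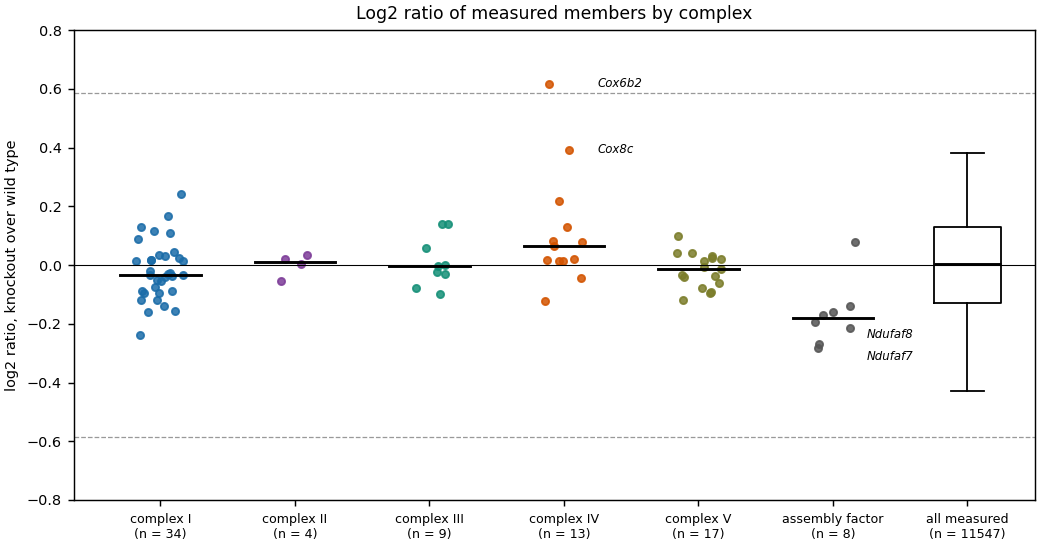
Log2 ratio (knockout over wild type) of the 85 measured members by complex (points, with the median as a black bar) beside all 11547 measured genes (box: quartiles, whiskers: percentiles 5 and 95). Dashed lines mark 1.5-fold. Only Cox6b2 lies past them, and 7 of 8 Ndufaf assembly factors lie below 0.

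The ATP synthase had 7 of 17 subunits above 0 and 10 below, beside 50.4% of all measured genes above 0. Its median was -0.01 and its range -0.12 to 0.10. After quantile normalization the split was 4 and 13, and without probe sets ending in _x_at or _s_at it was 8 and 7, with a median of 0.01. In the catalytic head and central stalk, Atp5a1 and Atp5b, the alternating large subunits, read 5009 in knockout against 4937 in wild type (log2 0.02) and 4133 in knockout against 4246 in wild type (log2 -0.04). The rotating stalk subunit Atp5c1 read 4539 on the knockout array and 4240 on the wild-type array (log2 0.10). Atp5e, at its foot, read 2201 in knockout against 2389 in wild type (log2 -0.12). Atp5d, beside it, had a log2 ratio of -0.08, with 0.0024 on its second probe set. Subunits of the one rotor were therefore on both sides of 0.

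The 3 c-ring genes encode the same mature protein behind different import signals. Atp5g1 read 1918 on the knockout array and 1865 on the wild-type array (log2 0.04). Atp5g2 read 3286 in knockout against 3214 in wild type (log2 0.03), with a second probe set at 0.23. Atp5g3 read 5729 in knockout against 5776 in wild type (log2 -0.01). None of the 3 reached 1.2-fold, so the ring's transcripts were near parity on both arrays. In the peripheral stalk, which holds the head still, Atp5pb was lowest, at 2875 in knockout against 3072 in wild type (log2 -0.10), with 0.02 on its second probe set. Atp5h, Atp5j and Atp5o, the other stalk subunits, lay between -0.06 and 0.01. Among the small membrane subunits Atp5j2 read 2841 on the knockout array and 3026 on the wild-type array (log2 -0.09), and Atp5mpl 2511 in knockout against 2439 in wild type (log2 0.04). Atp5k, Atp5l and Atp5md lay between -0.04 and 0.02.

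The Ndufaf assembly factors of complex I lay mostly below 0. Of 8 Ndufaf genes 7 had a ratio below 0, against 52.5% of the 6919 genes with a mean log2 signal from 7 to 10, the range in which all 8 lie. Their median log2 ratio was -0.18, beside -0.01 for those 6919 genes. Ndufaf7, a methyltransferase, read 225 on the knockout array and 274 on the wild-type array (log2 -0.28). Ndufaf8, the partner of Ndufaf5, read 682 in knockout against 822 in wild type (log2 -0.27), and its second probe set gave -0.16. Ndufaf3, which acts early in assembly, read 279 in knockout against 323 in wild type (log2 -0.21). Ndufaf7 and Ndufaf8 were thus at least 1.2-fold lower, as were 12.1% of the genes in that range, and none was 1.5-fold lower, against 2.47%. Both lay close to 1.2-fold: they passed it together in 3 of 8 alternative settings, and under quantile normalization neither did (log2 -0.23 for Ndufaf7 and -0.26 for Ndufaf8).

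Ndufaf1, a chaperone of the membrane arm, read 360 on the knockout array and 411 on the wild-type array (log2 -0.19). Ndufaf5, a hydroxylase of Ndufs7, read 156 in knockout against 175 in wild type (log2 -0.17). Ndufaf4, the partner of Ndufaf3, read 660 in knockout against 738 in wild type (log2 -0.16), and -0.04 on its second probe set. Each of these values was a difference of less than 1.2-fold. Ndufaf2 read 653 on the knockout array and 718 on the wild-type array (log2 -0.14). The exception was Ndufaf6, at 368 in knockout against 348 in wild type (log2 0.08). The split of 7 below and 1 above did not change under quantile normalization or median centring.

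Factors of the same kind outside the rule were less one-sided. Of 35 measured assembly factors of complexes I to V, 21 lay below 0 and 14 above, with a median of -0.03. Of all measured genes 49.5% lay below 0. None of the 35 was 1.5-fold different, against 4.35% of all measured genes. After quantile normalization the split was 18 and 17. Those of complex I lay on both sides of 0. Foxred1 (log2 0.13), Ecsit (log2 0.11) and Acad9 (log2 0.03, with -0.15 on its second probe set) lay above. Tmem126b (log2 -0.24, under the floor on the knockout array), Timmdc1 (log2 -0.16) and Nubpl (log2 -0.01) lay below. Uqcc1, of complex III, read 265 on the knockout array and 320 on the wild-type array (log2 -0.27, with -0.16 on its second probe set). Atpaf2, a chaperone of the alpha subunit of ATP synthase, read 241 in knockout against 286 in wild type (log2 -0.24). Atpaf1, which does the same for the beta subunit, read 416 in knockout against 339 in wild type (log2 0.29), but its second probe set read 205 in knockout against 247 in wild type (log2 -0.26), so the direction depends on the probe set. Cox10, which works on the path to the heme A of complex IV, read 428 in knockout against 360 in wild type (log2 0.25), with a second probe set at 0.01.

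**Figure D5:**
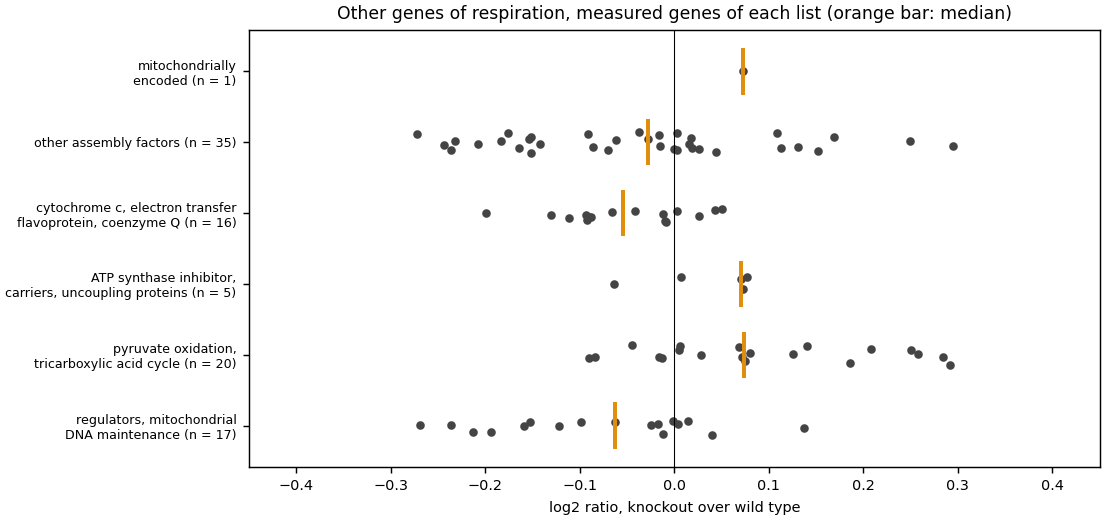
Log2 ratio (knockout over wild type) of the measured genes in 6 lists of other respiration genes (points), with the median of each list as an orange bar. Genes of pyruvate oxidation and the tricarboxylic acid cycle lie mostly above 0, regulators and coenzyme Q genes mostly below, and no gene reaches 1.5-fold.

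Genes of pyruvate oxidation and the tricarboxylic acid cycle, the list that includes the pathways feeding the chain, lay mostly above 0. Of 20 measured genes 15 were above 0, with a median of 0.07, beside 50.4% of all measured genes above 0. The list also holds kinases that inhibit pyruvate dehydrogenase, so its count is not one of fuel supply alone. Of these kinases Pdk1 was among the 15 (log2 0.25), and its probe sets ran from -0.06 to 0.25. The pyruvate dehydrogenase subunit Dlat read 467 on the knockout array and 382 on the wild-type array (log2 0.29), with 3 probe sets from 0.09 to 0.32. Mpc1, of the mitochondrial pyruvate carrier, read 1117 in knockout against 917 in wild type (log2 0.28). These 2 of the 20 genes were at least 1.2-fold different, both higher, against 22.0% of all measured genes (10.4% higher). The lowest were Idh3b, of isocitrate dehydrogenase (log2 -0.09), and the kinase Pdk3 (log2 -0.08).

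Genes of the mobile carriers and of coenzyme Q synthesis had 4 of 16 above 0, beside 50.4% of all measured genes. Their median was -0.05, with 6 above 0 after quantile normalization. Cycs, cytochrome c itself, read 2369 on the knockout array and 2327 on the wild-type array (log2 0.03). Coq10b (log2 -0.20, with -0.04 on its second probe set) and Etfa, of the electron transfer flavoprotein (log2 -0.13), were lowest, and Coq8b (log2 0.05) and Etfb (log2 0.04) highest. The 1 mitochondrially encoded subunit named on the array, ND5 of complex I, read 3048 in knockout against 2898 in wild type (log2 0.07). Beside the ATP synthase, the adenine nucleotide carriers Slc25a4 and Slc25a5 had log2 ratios of 0.08 and 0.07, the phosphate carrier Slc25a3 had 0.0071 (0.27 on its second probe set), and the uncoupling protein Ucp3 was at the floor (60.1 in knockout against 63.2 in wild type). That list had 4 of 5 measured genes above 0, beside 50.4% of all measured genes, and a median of 0.07, with 3 above after quantile normalization.

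Regulators of respiratory genes and of mitochondrial DNA had 13 of 17 measured genes below 0, beside 49.5% of all measured genes. Their median was -0.06, with 11 below 0 after quantile normalization. Tfb2m, a mitochondrial transcription factor, read 531 on the knockout array and 640 on the wild-type array (log2 -0.27), the one gene of the list at least 1.2-fold different, against 22.0% of all measured genes. Nrf1, which encodes the factor that binds the NRF-1 letters, read 232 in knockout against 274 in wild type (log2 -0.24), but its 4 probe sets ran from -0.35 to 0.16. Highest were Esrra (log2 0.14), an orphan nuclear receptor, and Gabpb1 (log2 0.04, with -0.25 on its second probe set). Yy1 had a log2 ratio of 0.0037, with 0.12 and 0.19 on further probe sets, and Gabpa of -0.0016, with 0.16 on its second. Ppargc1a, the coactivator PGC-1alpha, was under the floor on both arrays (17.1 in knockout against 36.0 in wild type). Measured members whose promoter window held the NRF-1 letters had a median log2 ratio of -0.04 (19 genes), and those without, -0.03 (51 genes). The 7 with the YY1 letters had a median of -0.09, and the 63 without, -0.02. All 4 medians lay within 0.1 of 0.

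Other features of the arrays moved as well. The single Sirt6 probe set read 174 in the cells labelled knockout and 124 in wild type, so it was not lower there; whether it lies in the disrupted part of the transcript is not known here, and every direction above rests on the label. Of 10 markers of HSC and early progenitors all were measured, 7 below 0 and 3 above, with a median log2 ratio of -0.53. At least 1.5-fold lower were 5 of them, as were 2.63% of all measured genes, and none was at least 1.5-fold higher. The 3 above 0 were Kit (log2 0.03), Cd34 (log2 0.15) and Flt3 (log2 0.19). Progenitors also express these 3, so the list is not one of long-term HSC alone. The summed signal was 10113 on the knockout array and 12138 on the wild-type array, and bright probe sets such as that of Cd34 weigh most in it. All 12 granulocyte markers were above 0, with a median of 0.78, and 10 were at least 1.5-fold higher, as were 1.71% of all measured genes, with a summed signal of 37246 in knockout against 23234 in wild type. Median log2 ratios of the measured markers were -0.14 for 6 erythroid, 0.35 for 6 monocyte and macrophage, 0.54 for 5 B cell, 0.13 for 3 megakaryocyte and -0.15 for 3 endothelial and stromal genes. Some of these medians lie between large opposite ratios. Erythroid Car1 had -1.96 and Tfrc 0.71, and megakaryocyte Pf4 had -0.76 and Itga2b 0.88. Among endothelial and stromal genes Cxcl12 had -2.93 or lower, being under the floor on the knockout array, and Pecam1 had 0.69. Of 6 T and NK cell markers 1 was measured (log2 0.22). The part of these markers in the values of the respiratory genes was not tested.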

How the data were processed

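The deposited table holds a linear signal intensity for each probe set on each array, made by the authors with MAS5, per the submitters' processing notes; the notes name neither scaling target nor version, and no detection calls were used. Median signals were 60.7 (knockout) and 60.8 (wild type), so the deposited intensity values were converted to log2 without rescaling. Of 45037 probe sets, 34945 named 1 gene, 932 several and 9160 none. All 91 members matched RefSeq by Entrez identifier with the same symbol. Values under the floor were raised to it. Sizes of 1.5-fold and 1.2-fold stand in for a test, and the number of arrays limits the precision. The members, lists, sizes and alternatives were chosen with earlier results of these data known. Full values were given for the 3 highest and 3 lowest members of each complex, the assembly factors, tissue isoforms and c-ring genes; the 2 highest and lowest genes of each related list were given by their log2 ratio, some with signals. Other members given with values were chosen for their role. Alternatives were 2 normalizations, 4 treatments of low values, a median across the probe sets of a gene and the omission of _x_at and _s_at probe sets, which can match related transcripts. Python 3.11.15, numpy 2.4.6, pandas 2.3.3 and matplotlib 3.10.9 were used. The procedure was tested on simulated data with changes larger than 1.5-fold in genes well above the floor. Changes as small as those of most members were not simulated.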

Additional observations from a re-analysis of the deposited data

How the results depend on the processing

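Of the 8 alternatives, 7 left the count of members at least 1.5-fold different at 1 (Cox6b2), and with the floor value added as a pseudocount it was 0 (Cox6b2 at log2 0.54), because a pseudocount shrinks ratios. The count at least 1.2-fold different, 4 as reported, was 7 with no floor, which adds ratios of genes under the floor, 2 with the pseudocount, and 2 with the floor at percentile 75. Ndufaf7 and Ndufaf8 were both past 1.2-fold in 3 of the 8 alternatives. Medians moved by less than the spread of 0.08 between probe sets of one gene in all 8. Complex I stayed between -0.05 and -0.03, complex IV between 0.02 and 0.09, and the Ndufaf genes between -0.19 and -0.16. The medians of all subunits (-0.02 to 0.0078) and of complexes II (-0.0088 to 0.01), III (-0.03 to 0.0013) and V (-0.04 to 0.01) crossed 0. No paired analysis was possible because each genotype had 1 array. With no replicates, differences as small as those of most subunits cannot be separated from array error.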
